A study of Mus musculus with 9 samples.

Results

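The 8 genes described here encode enzymes of the methionine cycle and proteins tied to S-adenosylmethionine: Mat2a, Mat2b, Ahcy, Ahcyl1, Ahcyl2, Mettl16, Mtr and Mtap. They were chosen by name, with the difference between genotypes in this series already known, and each matched 1 of the 59445 features of the deposited expression table. All 8 passed the filter on low values (at least 10 normalized reads in at least 4 libraries), as did 15288 features in all. RNA sequencing measured transcript levels in F4/80+ CD11b+ macrophages sorted from mouse liver. The mice were male C57BL/6 animals that had been given the hepatotoxin carbon tetrachloride (CCl4) intraperitoneally 24 hours earlier, once, at a labelled dose of 0.6 mg/kg, a unit that could not be checked. Every mouse received CCl4, so no uninjured liver enters any comparison. The controls were 4 MAGL fl/fl mice (libraries S1, S3, S4 and S5), all 11 weeks old. The other group was 5 MAGL Mye-/- mice, of which S9, S10 and S11 were 10 weeks old and S8 and S12 were 11 weeks old. MAGL is monoacylglycerol lipase, encoded by Mgll, and "Mye" marks a myeloid deletion; its Cre driver is not given in the labels. The labels do not say whether any library pooled mice, and p-values measure the spread between these libraries. Where values of single libraries are listed, controls come in the order S1, S3, S4, S5 and Mye-/- mice in the order S8 to S12.

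The methionine cycle supplies cells with methyl groups. Methionine adenosyltransferase joins methionine and ATP into S-adenosylmethionine, methyltransferases pass its methyl group to DNA, RNA, proteins and small molecules, and S-adenosylhomocysteine hydrolase clears the product before methionine synthase rebuilds methionine from homocysteine. Hepatocytes use the isoenzyme encoded by Mat1a, whereas most other cells, macrophages included, use the enzyme of Mat2a and its regulatory subunit Mat2b. The RNA methyltransferase METTL16 reads S-adenosylmethionine supply through hairpins in the Mat2a transcript: when S-adenosylmethionine is scarce, METTL16 stays longer on the hairpins, and splicing and stability of Mat2a RNA increase.

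These hairpins are shown because they tie the METTL16 member of the group to the Mat2a member. The letters TACAGAGAA and TACAGAAAA, the core of the hairpin loop that METTL16 recognises, were searched on the RNA strand of GENCODE M21 transcripts (GRCm38, the assembly of mm10), written with T for U. The transcript Mat2a-201, the longest coding reading frame of Mat2a, holds 6 matches in its last exon, exon 9, and all 6 lie in the 3′ untranslated region. The first begins 40 bases after the stop codon and the last 1337 bases after it. Each site is given with 10 bases on either side, 5′ to 3′ on the minus strand of chromosome 6, with the matched letters in capitals.
Site 1: tggcgtaggtTACAGAGAAgccttcaagc
Site 2: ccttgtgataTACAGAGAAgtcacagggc
Site 3: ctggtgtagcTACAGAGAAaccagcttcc
Site 4: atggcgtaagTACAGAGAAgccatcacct
Site 5: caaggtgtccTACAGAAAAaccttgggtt
Site 6: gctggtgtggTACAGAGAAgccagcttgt
The sites span chr6:72434235-72434263, chr6:72433451-72433479, chr6:72433272-72433300, chr6:72433157-72433185, chr6:72433046-72433074 and chr6:72432938-72432966 in the same order. RNAfold placed the matched letters of sites 2, 4, 5 and 6 fully in an unpaired loop, with 7 of 9 letters unpaired at site 1 and 6 of 9 at site 3. No transcript of the other 7 members holds a match. Of 21901 coding genes, taken at their longest coding transcript, 7.47% hold at least 1 match, and Mat2a, with 6, is the single gene that holds more than 4. Among the 4956 genes whose transcript is within 20% of the length of Mat2a's, 8.64% hold at least 1. The map of the transcript shows where the matches lie.

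**Figure D1:**
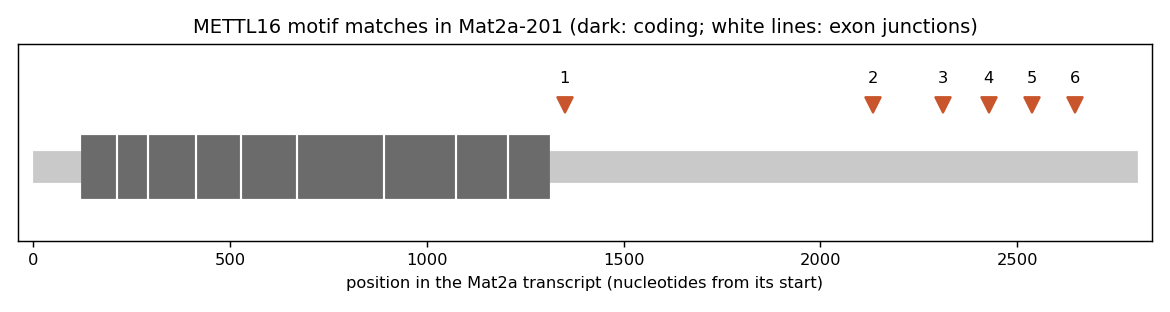
Matches to the METTL16 motif along the transcript Mat2a-201, in nucleotides from its start. Triangles number the 6 matches, the dark bar is the coding part and white lines are exon junctions; all 6 triangles lie to the right of the coding part.

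The libraries held 33383559 to 46489349 reads, and 14240 to 16802 features had at least 1 read. The mitochondrial chromosome took 3.49% to 9.45% of reads, most in fl/fl S3. Macrophage markers (Adgre1, Itgam, Csf1r, Lyz2, Cd68, Fcgr1 and Mertk) were all detected in every library. Mgll itself lay between 0 and 106 normalized reads in fl/fl and between 0 and 46.6 in Mye-/-, so it could not check the labels. The summed level of 12 hepatocyte markers ran from 672 to 1923 in fl/fl and from 1334 to 11981 in Mye-/-, highest in S10. Of 10 hepatocyte-type methionine genes, 7 had their highest value in that library, whereas Gamt and Nnmt were highest in controls and Bhmt2 was at 0 throughout. Mat1a was at 142 in S10 and 131 in S11 and at 0 in the other 7 libraries, while Bhmt and Cbs, at 77.1 and 197 in S10, were at 0 in all other libraries. Of the 7 macrophage markers named above, 6 were higher and 1 lower in Mye-/- mice. Their summed level was 327726 to 528816 in controls and 263076 to 329059 in Mye-/- mice. It was mostly that of Lyz2, a feature shared with Lyz1, at 308919 ± 83367 (SD, n = 4) and 169027 ± 24893 (SD, n = 5). Lyz2 did not overlap between the groups (limma adjusted p = 0.218, DESeq2 adjusted p = 4.14e-05). The 9 neutrophil markers summed to 24892 to 45050.2 and 12198 to 33736. That sum was mostly S100a8, at 30191 ± 8906 and 17455 ± 6352, and S100a9, at 5906 ± 1444 and 2841 ± 2327. Of the 9, 4 could be tested, with 1 higher and 3 lower on the log2 scale. Mpo, lower on that scale, and Retnlg had higher means in Mye-/- mice at low levels. Mpo was at 53.6 ± 43.4 and 135 ± 194, and Retnlg at 161 ± 240 and 181 ± 239. Platelet and erythroid markers, 7 in number, summed to 3193 to 19011 and 1638 to 3405. Most of that sum came from 2 globin genes. Hba-a1 was at 5488 ± 4558 and 1180 ± 311, without overlap (limma adjusted p = 0.0832, DESeq2 adjusted p = 0.0106). Hba-a2 was at 3450 ± 2440 and 667 ± 599, with overlap. Alas2, also erythroid, was at 79.2 ± 66.5 and 32.7 ± 32.4. The platelet markers did not share this fall. Pf4 was at 239 ± 103 and 236 ± 92.7, Ppbp at 28.8 ± 33.2 and 40.1 ± 36.1, and Itga2b at 39.6 ± 70.6 and 53.7 ± 20.4. Kupffer cell markers, 6 in number, summed to 7.16 to 512 and 205 to 1821, with Clec4f at 0 in controls S1, S3 and S4. The summed level of 16 immediate-early genes, of the kind induced when tissue is dissociated, was 614547 to 785088 in fl/fl and 816525 to 891643 in Mye-/-, without overlap. The part of these cell type markers and of immediate-early genes in the results below was not tested.

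Mat2a, the catalytic subunit of the macrophage methionine adenosyltransferase, was the member with the largest difference. It is annotated at chr6:72432799-72439564 (mm10, minus strand). Its level was 1364, 1678, 1240.4 and 1466 normalized reads in the controls, and 3869.8, 3253, 3252, 2755 and 3035 in the Mye-/- mice. Every Mye-/- library was above every fl/fl library, and the lowest of them, S11, stood well clear of the highest control, S3. These values rest on 1175 to 4049 reads per library. Control libraries averaged 1437 ± 185 (SD, n = 4) and Mye-/- libraries 3233 ± 411 (SD, n = 5), a 2.25-fold ratio, and the log2 difference was 1.17 ± 0.16 (SE, limma, on log2 of the value plus 1). A value from bulk RNA does not tell more Mat2a RNA in each macrophage from more macrophages of a kind that holds much of it.

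This contrast led to the choice of the genes, so the counts of calls are a description and nothing is read from them. Of the 8 members 1, Mat2a, was past the threshold (limma with Benjamini-Hochberg adjustment over all 15288 features, adjusted p under 0.05), against 0.0196% of all features. Mat2a was also past it with edgeR (0.0131% of features) and DESeq2 (0.805% of features) on whole reads. DESeq2 gave no adjusted p to 5 of the 8 members and to 9487 of the 15288 features, which therefore could not be called. The groups of Mat2a did not overlap, with Mye-/- higher, as held for 1.7% of features. The mean log2 difference was above 0 for 5 of the 8 members and for 54.6% of features, with a median of 0.08 over the members and 0.06 over all features. The log2 difference of Mat2a ran from 1.10 to 1.26 over 24 alternatives, some of which cannot change it by construction. Its call was lost in 6 of the 24. Those were the fits without Mye-/- S8, without Mye-/- S10, with age in the model, restricted to 11-week-old mice, with limma's intensity trend off and with the count of detected features in the model.

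Mat2b, the regulatory subunit that binds the Mat2a product, did not share this pattern. It was at 5159.9, 4413, 3308 and 3778 normalized reads in the controls and at 4536, 3206, 4274, 3752 and 3767 in the Mye-/- mice. The ranges overlapped almost wholly, with the highest value in a control and the lowest in Mye-/- S9. The log2 difference was -0.08 ± 0.16 (SE). The ratio of Mat2a to Mat2b, each per kilobase of annotated exon, was 0.29 to 0.43 in fl/fl and 0.82 to 1.13 in Mye-/-. Mat2a thus came near the level of Mat2b in Mye-/- libraries on this scale, while with the length of the longest coding transcript the ratio was 0.16 to 0.24 and 0.45 to 0.61. The length choice multiplies the ratio by the same factor in every library, so it cannot change whether the groups overlap.

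Mettl16, the methyltransferase that reads the hairpins shown above, was the member with the lowest level. It was at 156, 159, 247 and 292 normalized reads in the controls and at 241, 264, 310.3, 298 and 313 in the Mye-/- mice. Controls S1 and S3 were low, while S4 and S5 lay within the range of the Mye-/- libraries. The log2 difference was 0.47 ± 0.42 (SE), close to its SE, with overlapping groups and a pooled SD of 0.32. It was 0.081 without S1 and S3, an alternative chosen after the data were seen. The plot of levels by library shows all 8 members.

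**Figure D2:**
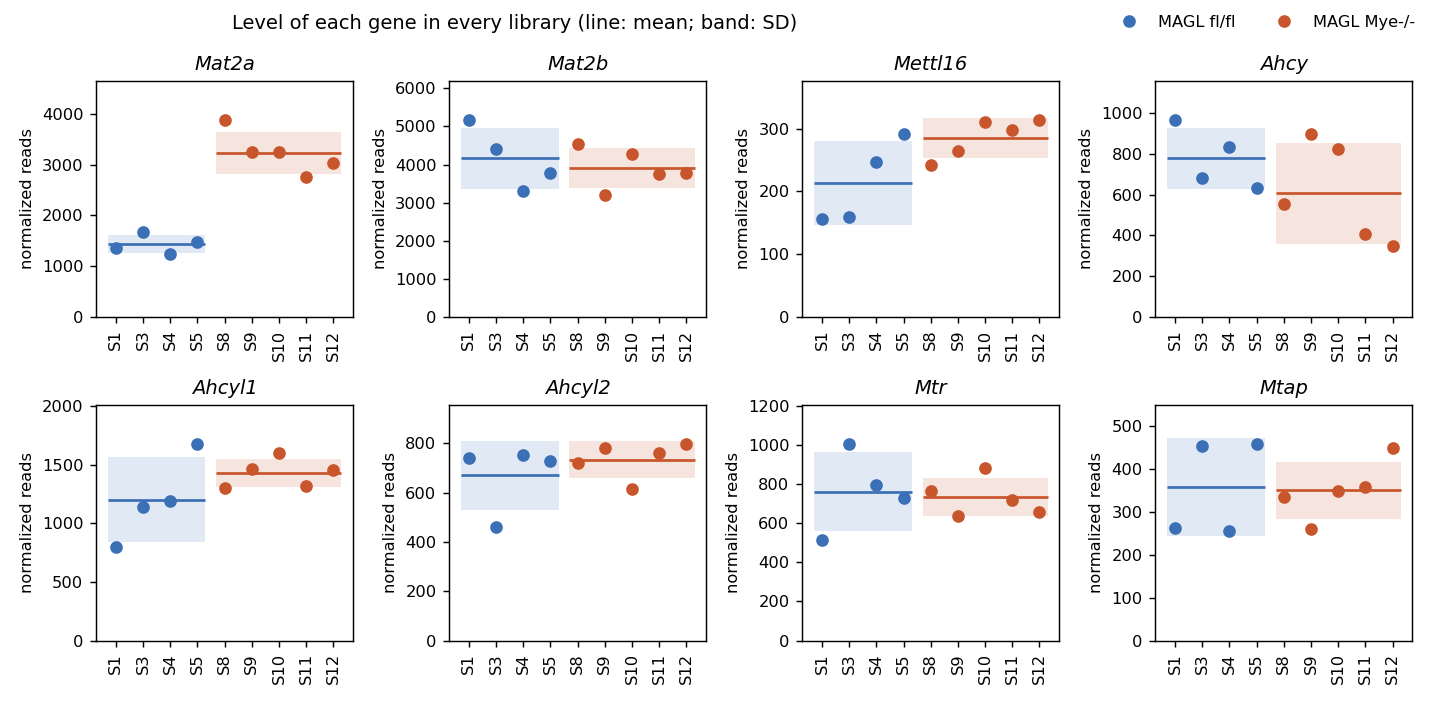
Normalized reads of each gene in the 9 libraries, blue for MAGL fl/fl and orange for MAGL Mye-/-, each panel with its own axis from 0; lines are group means and bands 1 SD. Only in the Mat2a panel do the 2 groups not overlap.

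The hydrolase step was represented by Ahcy, which splits S-adenosylhomocysteine, and by Ahcyl1 and Ahcyl2, related proteins without that known role. Ahcyl1, also called IRBIT, binds the inositol trisphosphate receptor and ion transporters. Ahcy was at 966, 684, 834 and 633 normalized reads in the controls and at 554, 897, 826, 407 and 348 in the Mye-/- mice. The Mye-/- libraries split, with S9 and S10 among the controls and S11, S12 and S8 below all of them. The log2 difference was -0.44 ± 0.31 (SE), within the spread, and -0.81 with age in the model.

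Ahcyl1 was at 802, 1141, 1191 and 1677 in the controls and at 1302, 1466, 1598, 1318 and 1458 in the Mye-/- mice. The Mye-/- libraries were close together, and control S5 was above all of them. The log2 difference was 0.29 ± 0.21 (SE), and 0.01 without S1 and S3. Ahcyl2 was at 739, 462, 752 and 730.0 in controls and at 720.4, 780.1, 614, 759 and 797 in Mye-/-, a log2 difference of 0.15 ± 0.25 (SE). Control S3 stood apart at the low end, and without it the log2 difference was -0.02.

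Methionine is regained by 2 members. Mtr encodes methionine synthase, which uses cobalamin and a folate methyl group, and Mtap encodes methylthioadenosine phosphorylase, which starts the salvage of methionine from the by-product of polyamine synthesis. Mtr was at 516, 1004, 793 and 727 normalized reads in the controls and at 763, 637, 880.0, 719 and 657 in the Mye-/- mice. The controls spanned the whole range of the Mye-/- libraries, and the log2 difference was -0.03 ± 0.25 (SE). Mtap was at 262, 455, 256 and 459 in controls and at 336, 261, 348, 358 and 448 in Mye-/-. Controls S3 and S5 were high and S1 and S4 low, the Mye-/- libraries lay between, and the log2 difference was 0.01 ± 0.37 (SE).

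The order of levels within a library was compared per kilobase of exon (union of annotated exons), since longer transcripts give more reads. Mat2b was highest in 8 of 9 libraries, and in Mye-/- S9 it was second to Mat2a. Mat2a was at rank 2 or 3 in fl/fl and at rank 1 or 2 in Mye-/-. In fl/fl the means per kilobase were 833 ± 161 for Mat2b, 320.3 ± 41.3 for Mat2a, 278 ± 53.8 for Ahcy and 179.8 ± 53.9 for Ahcyl1 (SD, n = 4). Mat2a and Ahcy did not differ beyond their spread there. Ahcy was above Ahcyl1 in S1, S3 and S4 and below it in S5. In Mye-/- Mat2a was at 721 ± 91.5 (SD, n = 5) per kilobase, within the spread of Mat2b at 781 ± 103 and above the other 6 members in every library. Ahcy, at 216 ± 87.7, and Ahcyl1, at 214 ± 18.2, differed by less than their spread. Mtap and Mtr followed, at 109 ± 20.7 and 85.8 ± 11.4, then Ahcyl2, at 40.2 ± 4.0. Several of these orders depend on the length used. Per kilobase of longest coding transcript, Mat2b was highest in every library. In Mye-/- it was then at 1903 ± 251, against 954 ± 121 for Mat2a. Ahcyl1, at 370 ± 31.5, was above Ahcy, at 238 ± 96.8, in every Mye-/- library. On this scale Ahcyl2 was at 142 ± 14.2 in Mye-/-, within the spread of Mtap at 125 ± 23.9. It was above Mtr, at 88.2 ± 11.7, in every Mye-/- library. Mettl16, at 15.4 ± 4.87 in fl/fl and 20.7 ± 2.27 in Mye-/-, was last in all 9 libraries.

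**Figure D3:**
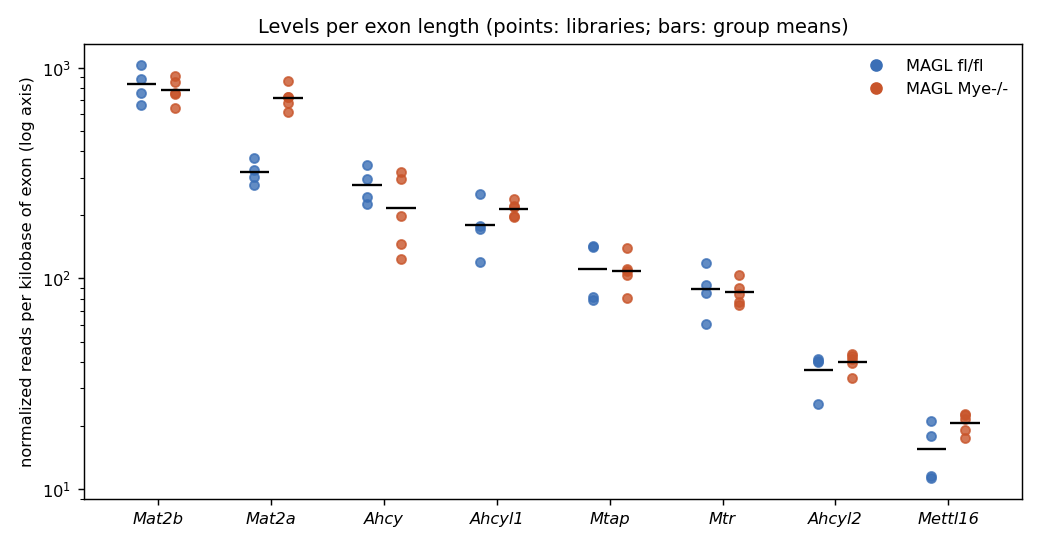
Normalized reads per kilobase of annotated exon, on a log axis, for each gene in fl/fl (blue) and Mye-/- (orange) libraries, ordered by the fl/fl mean; bars are group means. Mat2a moves from 320.3 in fl/fl to 721 in Mye-/-, next to Mat2b.

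Age, which varied within the Mye-/- group only, was a contrast that played no part in the choice of the genes. Mat2a was at 3253, 3252 and 2755 in the 10-week-old mice (S9, S10 and S11) and at 3869.8 and 3035 in the 11-week-old mice (S8 and S12). The ages overlapped, with a log2 difference of 0.16 ± 0.19 (SE, 11 minus 10 weeks). The largest difference by age was that of Ahcy, at -0.61 ± 0.41 (SE), where S11 at 407 lay below S8 at 554. Over all 8 members the limma adjusted p was 0.999, and the two-sided exact permutation p ran from 0.4 to 1, in a design whose smallest possible p is 0.2. Of all features, 0% were past the threshold by age with limma and 3.19% had an unadjusted p under 0.05.

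Genes around the cycle were taken from 15 lists of transporters, cofactor pathways and methyl users, drawn up from textbook knowledge with earlier results of these data known. Of 175 genes found in the table, 160 could be tested, and the comparison between genotypes called 0 of them with limma (adjusted p under 0.05). In these lists 97 genes were higher and 63 lower in Mye-/-, with a median log2 difference of 0.09. Over all features tested the median was 0.06 and 54.6% were higher, the share to set beside each count below. At an unadjusted p under 0.05 there were 15 higher and 5 lower, 12.5% of the genes against 10.5% of all features. DESeq2 called 2 as higher, Odc1 and Sat1, and gave no adjusted p to 86 of the 160, while edgeR called 0.

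Methionine enters macrophages through amino acid transporters, of which 7 of 9 were higher and 2 lower (median log2 difference 0.27). Slc38a1, a sodium-coupled neutral amino acid transporter, was at 905, 1141, 1081 and 1300.2 in the controls and at 1669, 1764, 1587, 1314 and 1681 in the Mye-/- mice. Its groups did not overlap, though S11 lay just above S5 (log2 difference 0.54 ± 0.19 SE, limma adjusted p = 0.329). Slc38a2, its relative, was at 21938 ± 4035 (SD, n = 4 controls) and 28428 ± 5116 (SD, n = 5 Mye-/- mice), and Slc43a2, a carrier of large neutral amino acids, at 1784 ± 577 and 2429 ± 485 (limma adjusted p = 0.421 and 0.451).

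Folate and serine enzymes feed methyl groups to methionine synthase, and 8 of 18 were higher and 10 lower (median -0.23). Psat1, an aminotransferase of serine synthesis, was at 688, 1183, 829.3 and 634 in the controls against 539, 479, 437, 286 and 434 in the Mye-/- mice. All its Mye-/- values were below all its fl/fl values, as for 1.6% of features (log2 difference -0.92 ± 0.29 SE, limma adjusted p = 0.297). Shmt2, the mitochondrial serine hydroxymethyltransferase, was at 471 ± 151 and 679 ± 133 (limma adjusted p = 0.520). In the cobalamin list 5 of 10 genes were higher and 5 lower, and Mmadhc, a cobalamin trafficking protein, was at 3260.1 ± 736 and 2606 ± 524.

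Polyamine synthesis spends S-adenosylmethionine and yields the substrate of Mtap. Odc1, ornithine decarboxylase, was at 4293, 3725, 3501 and 4479 in the controls and at 7641, 7684, 6038, 5546 and 5139 in the Mye-/- mice, without overlap (limma adjusted p = 0.186, DESeq2 adjusted p = 0.00645). Sat1, which acetylates polyamines for breakdown, was at 63747 ± 4657 and 87063 ± 8529.6 (limma adjusted p = 0.297, DESeq2 adjusted p = 0.00361). Amd1, which decarboxylates S-adenosylmethionine for this path, was at 3868 ± 766 and 3638 ± 509, and Srm, spermidine synthase, at 845 ± 329.6 and 557 ± 129.9. The salvage enzymes that act after Mtap had 3 of 6 members higher and 3 lower, and among them Enoph1 was at 456 ± 92.8 and 628 ± 215.

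Of the methyl users, 26 of 35 DNA and histone methyltransferases had higher and 9 lower means (median log2 difference 0.29). Unadjusted p under 0.05 was reached by 6 of them, all higher. That is 17.1%, against 10.5% of all features and 14.9% of features with a mean of 500 or more, with none past the adjusted threshold in limma, edgeR or DESeq2, which gave no adjusted p to 19 of them. Dot1l, a histone H3 lysine methyltransferase of transcribed genes, was at 425, 473, 452 and 665 in the controls and at 955, 879, 963, 1062 and 821 in the Mye-/- mice (log2 difference 0.91 ± 0.24 SE, limma adjusted p = 0.218). The groups were apart, with S5 the highest control. Setd7, a lysine methyltransferase, was at 319 ± 61.9 and 577 ± 95.8, also without overlap, and Ash1l, another histone methyltransferase, at 3948 ± 1035 and 5553 ± 504.

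Of the protein arginine methyltransferases and their partners, 4 of 10 were higher and 6 lower (median -0.07). Wdr77, the partner of Prmt5, whose feature is shared with Ovgp1, was at 347 ± 87.0 in controls and at 506 ± 88.4 in Mye-/- mice (limma adjusted p = 0.557). Prmt5 itself was at 983 ± 243 in controls and at 782 ± 272 in Mye-/- mice. Among enzymes that methylate small molecules and protein ends, 5 of 11 were higher and 6 lower (median -0.10). Icmt, which methylates prenylated proteins such as Ras, was at 2785, 2209, 2379.6 and 2059 in the controls and at 1435, 2005, 1535, 2015 and 1612 in the Mye-/- mice. All Mye-/- values were below all controls, by a small margin between S11 and S5 (limma adjusted p = 0.356). Lcmt1, which methylates the catalytic subunit of protein phosphatase, was at 1009.7 ± 339 and 629 ± 208 (limma adjusted p = 0.441).

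**Figure D4:**
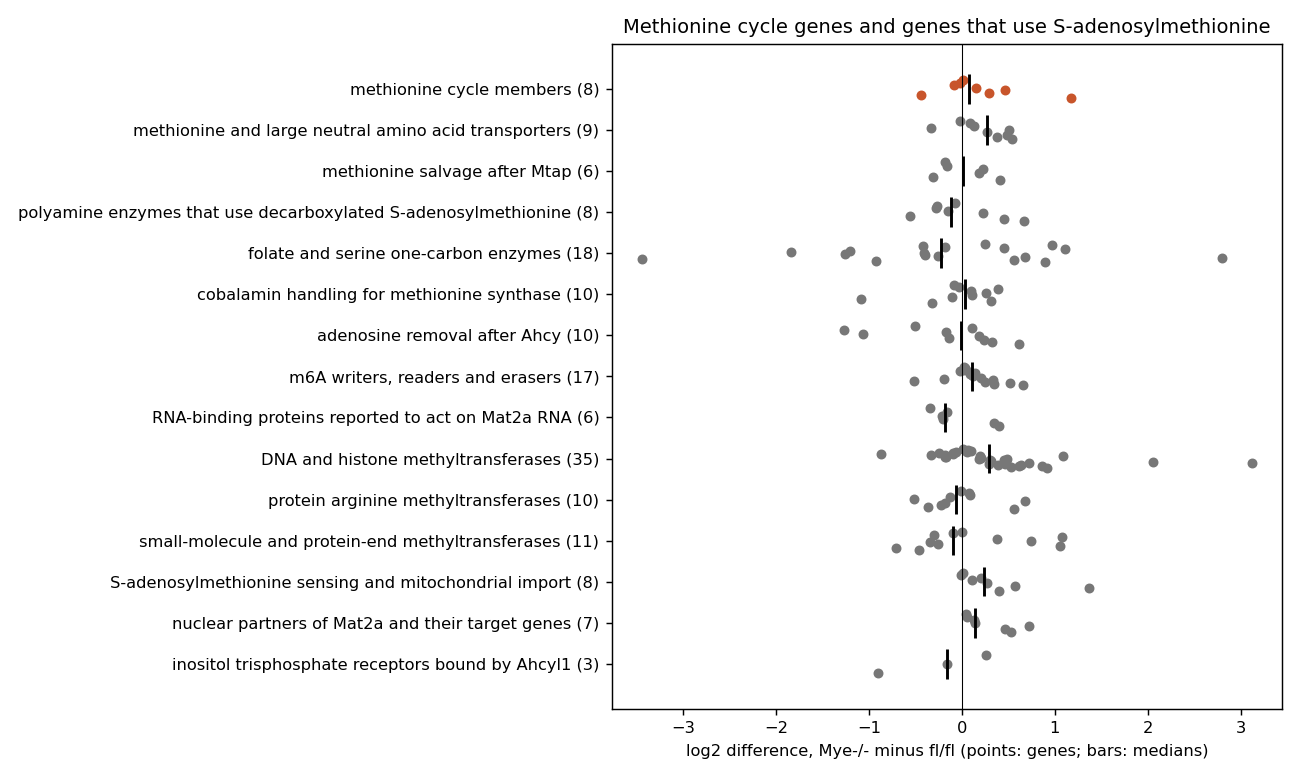
Log2 difference (Mye-/- minus fl/fl) of each tested gene, a point per gene, by list, with the number of genes in brackets and the median as a bar; the list of hepatocyte-type enzymes is not drawn. Points far from 0 are mostly genes with few reads, and the medians run from -0.23 to 0.29.

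RNA methylation genes, the wider family of Mettl16, had 14 of 17 members higher and 3 lower (median 0.11). Mettl3 and Mettl14, the main m6A writer pair, had control means of 989 ± 145 and 193 ± 107 and Mye-/- means of 1159.8 ± 273 and 191 ± 62.0. Fto, an RNA demethylase, was at 424 ± 92.8 and 668 ± 146 (limma adjusted p = 0.444). Ythdc1, a nuclear m6A reader that binds Mat2a RNA, was at 1294 ± 209 and 1651 ± 296 (limma adjusted p = 0.544). Among proteins reported to act on Mat2a RNA, 2 of 6 were higher and 4 lower. Hnrnpd was at 11187 ± 1647 and 9628 ± 816, and Cpsf7 at 1381 ± 403 and 1789.6 ± 296.

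The Mat2a protein also acts in the nucleus with MafK, where the pair has been described at the genes for haem oxygenase and cyclooxygenase. All 7 genes of that list were higher in Mye-/- (median 0.14), as were 54.6% of all features. None passed with limma, edgeR or DESeq2, which gave no adjusted p to 1 of them. Unadjusted p from limma was under 0.05 for 2 of the 7, or 28.6%. Of all features 10.5% reached that, and of features with a mean of 500 or more 14.9%. Mafk was at 4523 ± 1205 in controls and at 6407 ± 1012 in Mye-/- mice (log2 difference 0.53 ± 0.18 SE, limma adjusted p = 0.318). Ptgs2, which encodes the inducible cyclooxygenase, was at 13887 ± 5241 and 18553 ± 3936 (limma adjusted p = 0.438), and Hmox1, haem oxygenase, at 29295 ± 9439 and 31304 ± 7293 (limma adjusted p = 0.865). Of 16 immediate-early genes tested, 14 were higher and 2, Ier2 and Egr1, lower in Mye-/- mice. Their summed level, given above, was higher in every Mye-/- library than in any control.

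The genes closest to Mat2a in pattern were found by the root mean square difference of centred log2 values over the 9 libraries, among the 6762 named features whose mean reached 500. Because the difference between genotypes dominates the pattern of Mat2a, this list describes that difference again and was given no test. The closest was Id1, which blocks DNA binding by helix-loop-helix factors, at 0.19, against a median of 0.67 over the features compared. Next were Atxn7, a subunit of the SAGA complex, at 0.26, Id3, a relative of Id1, at 0.26, Dot1l at 0.27 and Lrch3 at 0.28. Atxn7 was at 1627 ± 249 in controls and at 2763 ± 403 in Mye-/- mice, and Id3 at 14736 ± 4568 and 24792 ± 4398. Of the 5 other members whose mean reached 500, Ahcyl1, at 0.53, was the nearest and Ahcy, at 0.91, the farthest.

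**Figure D5:**
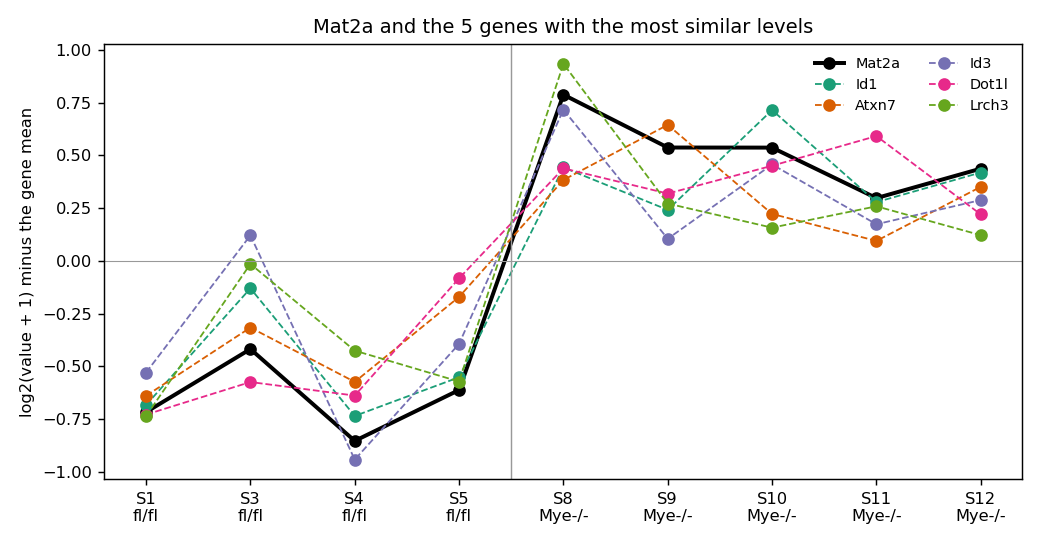
Log2(value + 1) minus the mean of each gene over the 9 libraries, for Mat2a (black) and the 5 genes with the smallest root mean square difference from it. All 6 are higher in each Mye-/- library than their own mean; Id3 in fl/fl S3 is also above it.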

How the data were processed

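Per the file headers, the deposited signal is normalized reads per gene on FAST DB models (mm10): DESeq size factors were applied by the authors, 1 for each library, without log or length scaling. The submitters' processing notes name STAR 2.4.0, SAMtools, Picard and FastQC. Which counter and strand setting produced the reads is not stated in those notes, so reads of overlapping and antisense genes cannot be told apart. Dividing each column by its smallest nonzero value gave whole reads within 0.01 (100% of nonzero values), used for edgeR 4.0.16 and DESeq2 1.42.0.

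The 2 genotypes were compared by limma 3.58.1 under R 4.3.3 (intensity trend on) from log2(value + 1). Features needed 10 normalized reads or more in 4 or more libraries. Tests were two-sided, Benjamini-Hochberg adjusted over all 15288 features, with a threshold of 0.05. On that scale the difference of a low gene depends on the pseudocount, and with values at 0 in some libraries it can be larger than the ratio of means. The members and all lists were chosen with earlier results of these data known. Named genes are the 8 members, the 5 features most like Mat2a, up to 3 genes with the smallest p of each list and a few genes of known role, among them Amd1, Mettl3, Mettl14 and Hmox1, named outside that rule after their values were seen. Exon lengths and transcript sequences came from GENCODE M21, and folding from RNAfold 2.7.2. Alternatives covered pseudocounts, filters, scaling, variance models, age, each library left out and count models. The handling of duplicate reads is not stated either. Not every gene that this rule picked is reported here.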

Additional observations from a re-analysis of the deposited data

Results flagged for a closer look

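Among the 8 members in each of the 2 genotypes, 16 groups in all, 1 library stood far from the rest of its group. Ahcyl2 in fl/fl S3 was at 462 normalized reads, while the other 3 controls lay between 730.0 and 752; the gap was 0.923 of the range of the group, above Dixon's critical value of 0.829. Chance alone marks about 1 in 20 groups in this way. S3 also had the highest share of mitochondrial reads.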

How the results depend on the processing

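Over 24 alternatives the log2 difference kept its sign for Mat2a, Ahcy (-0.81 to -0.26), Ahcyl1 (0.01 to 0.47) and Mettl16 (0.081 to 0.63). It took both signs for Ahcyl2, Mat2b, Mtr and Mtap. Not all alternatives could move it. The filters, robust limma and the intensity trend leave a log2 difference unchanged by construction. Age in the model and 11-week-old mice alone gave the same differences, since every control was 11 weeks old. Beyond the spread of replicates, 1 value moved: Mettl16 log2 difference without fl/fl S1 and S3 together was 0.081. The number of members past the threshold, 1, became 0 with no intensity trend, with age in the model, in 11-week-old mice alone and with detected features in the model; with a library left out it was 0 (Mye-/- S8 or S10) to 1. The number of all features past the threshold, 3, was 17 with a pseudocount of 8, 6 with TMM scaling, 8 after quantile normalization, 9 with robust limma, 21 with no intensity trend, 5 with array weights and 123 with DESeq2. It was 0 with age in the model, 0 in 11-week-old mice alone, 0 with detected features in the model, and 9 with S1 and S3 removed. Leaving out a library gave 0 to 20: 0 for Mye-/- S8 and S10, 1 for S11, 5 for S9 and for control S3, 7 for control S1 and 20 for control S5. Pathway genes past the threshold numbered 2 with DESeq2. By age, 52 features passed with no intensity trend. The cause of these changes was not tested. The settings with detected features and with S1 and S3 removed were chosen after seeing the data. The 5 genes most like Mat2a were the same with a pseudocount of 8 and with TMM. Neither setting could move that list much, so the agreement does not test it. TMM rescales a whole library, which shifts Mat2a and the other gene alike and nearly cancels in their difference. A pseudocount of 8 is small beside the minimum mean set for that comparison. Per kilobase of longest coding transcript, Mat2a averaged 424 in controls and 954 in Mye-/- mice, and Mat2b 2029 and 1903. No paired analysis was possible because the groups share no replicate number in the labels.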

Other observations

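The nearest tested feature with a symbol was taken on each side of Mat2a, and neither was past the threshold. Ggcx, the gamma-glutamyl carboxylase gene that ends 1693 bases from Mat2a, was at 483 ± 118 (SD, n = 4 controls) and 614 ± 159.6 (SD, n = 5 Mye-/- mice), with overlap (limma adjusted p = 0.727). On the other side it was Capg, an actin-capping protein gene 104827 bases from Mat2a. Capg was at 17999 ± 563 and 15403 ± 1199 (limma adjusted p = 0.514), with every Mye-/- value below every control. No other feature of the table overlaps Mat2a. A feature without a symbol overlaps Mat2b and was at 73.2 ± 67.0 and 60.3 ± 31.8.

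Nnmt, nicotinamide N-methyltransferase, which consumes S-adenosylmethionine, was at 161, 128, 111 and 128 in the controls (S1, S3, S4, S5) and at 59.9, 0, 30.5, 17.1 and 17.9 in the Mye-/- mice (S8 to S12). All Mye-/- values were below all controls at these low levels (limma adjusted p = 0.366). Itpr2, a receptor of the family that Ahcyl1 binds, was at 672 ± 213 and 357 ± 127 (limma adjusted p = 0.366), while Itpr1 was at 1867 ± 426 and 1678 ± 385. Slc29a3, a nucleoside transporter of lysosomes that handles adenosine, was at 264 ± 37.5 and 406 ± 71.0, without overlap (limma adjusted p = 0.557).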
